A study of Mus musculus with 18 samples.

Results

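The transcripts of 10 activity-dependent genes were followed in embryonic mouse sensory neurons after their axons were cut. The genes were taken by name as members of the Egr and Nr4a families and other early genes of neurons, and were Egr1, Egr3, Egr4, Ier2, Nr4a1, Nr4a2, Nr4a3, Npas4, Arc and Homer1, 10 of the 47643 genes in the count table. RNA came from spot cultures of dorsal root ganglia (DRG) of CD-1 mice at e13.5, the eDRG spot culture, in which the cells of the ganglion are plated as a small drop and axons grow out of it. The control was an uninjured culture collected at day 7 in vitro (DIV7), and the other 5 groups were injured with a blade and collected 1, 3, 8, 16 or 24 h post injury (HPI), with 3 libraries in each of the 6 groups and 18 libraries in all. According to the study's methods, cultures grew with nerve growth factor and with fluorodeoxyuridine (FDU), a mitotic inhibitor that removes dividing cells. All 6 groups shared the strain and the embryonic stage, and the labels give no genetic change for any of them. The labels give no uninjured culture for the later hours, so every time point was compared with the same 3 control libraries and the comparisons with control are not independent of each other. The labels place the collection at DIV7 and the study's methods place the cut there. If the cut was at DIV7, the injured cultures were older than the control by their hours post injury, and injury and age in culture cannot be told apart. The labels do not say whether the 3 libraries of a group came from separate animals or platings, so p-values measure the spread between these libraries, part of which may be technical.

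Activity-dependent genes are switched on in neurons by calcium entry and by growth factor signals. The first of them to respond, the immediate early genes, need no new protein synthesis and act through factors already present, such as CREB, SRF and MEF2. Immediate early genes mostly code for transcription factors, among them the zinc finger proteins of the Egr family, the orphan nuclear receptors of the Nr4a family and Npas4. Arc and the short form of Homer1 act at the synapse itself. After a nerve injury, calcium enters at the cut end of the axon and signals travel back to the cell body, and several of these genes are known to respond in sensory ganglia.

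CREB binds many of these genes near their start, at the cyclic AMP response element (CRE) or at its half-site TGACG. The promoters of the 3 Nr4a genes and of Homer1 are shown, as those with the most half-sites among the 6 members whose promoter was available. Half-sites were not counted for Egr1, Egr3, Arc and Ier2. Promoter windows of 300 bases, 250 before to 50 after a transcript start, were taken from RefSeq on GRCm38.p6, whose table held 7 windows for 6 of the 10 genes: Egr4, Npas4, Nr4a1, Nr4a2, Nr4a3 and Homer1 with 2. Each window is printed on the strand of its gene, with every half-site in capitals, TGACG on the printed strand or CGTCA for the same letters on the other. The Nr4a1 window is chr15:101266596-101266895 on the plus strand, that of Nr4a2 is chr2:57123954-57124253 on the minus strand, that of Nr4a3 is chr4:48045055-48045354 on the plus strand and that of Homer1 is chr13:93303507-93303806 on the plus strand.
Nr4a1: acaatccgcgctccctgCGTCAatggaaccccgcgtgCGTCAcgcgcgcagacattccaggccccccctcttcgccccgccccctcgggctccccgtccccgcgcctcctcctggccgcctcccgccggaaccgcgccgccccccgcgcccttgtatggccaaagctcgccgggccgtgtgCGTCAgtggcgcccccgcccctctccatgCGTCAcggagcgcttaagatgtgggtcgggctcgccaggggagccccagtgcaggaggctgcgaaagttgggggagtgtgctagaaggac
Nr4a2: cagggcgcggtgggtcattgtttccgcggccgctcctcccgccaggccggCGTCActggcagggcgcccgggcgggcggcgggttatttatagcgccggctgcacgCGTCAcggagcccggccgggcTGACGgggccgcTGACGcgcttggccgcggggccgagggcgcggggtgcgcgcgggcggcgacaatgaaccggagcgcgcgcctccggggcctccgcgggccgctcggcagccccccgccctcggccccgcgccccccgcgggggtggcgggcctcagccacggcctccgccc
Nr4a3: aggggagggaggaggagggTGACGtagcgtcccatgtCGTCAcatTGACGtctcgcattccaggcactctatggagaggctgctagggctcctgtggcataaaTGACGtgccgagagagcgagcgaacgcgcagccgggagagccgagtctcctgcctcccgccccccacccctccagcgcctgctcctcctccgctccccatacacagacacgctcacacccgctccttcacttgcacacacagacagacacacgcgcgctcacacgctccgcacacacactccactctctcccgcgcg
Homer1: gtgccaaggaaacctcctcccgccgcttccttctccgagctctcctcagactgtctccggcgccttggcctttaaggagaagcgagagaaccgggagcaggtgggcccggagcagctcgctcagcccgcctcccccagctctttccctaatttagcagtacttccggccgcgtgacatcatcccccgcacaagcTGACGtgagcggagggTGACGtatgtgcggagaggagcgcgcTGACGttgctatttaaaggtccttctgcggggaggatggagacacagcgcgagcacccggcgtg
Each of the 3 Nr4a windows held 4 half-sites and the Homer1 window held 3, whereas 1.03% of the 32851 RefSeq windows held 3 or more and 20.8% held at least 1. Egr4 and Npas4 held 2 each, and the second Homer1 window held 0. The half-site was added to the search after the sequences had been seen, and these 4 windows were chosen by it. Among the motifs listed earlier, the Egr site GCGNGGGCG lay once in the Nr4a1 window and once in the Nr4a2 window, against 5.55% of all windows with at least 1. The full CRE TGACGTCA, the Nr4a site AAGGTCA and the CArG box bound by SRF had no match in the 7 windows, and 1.79%, 4.72% and 1.63% of all windows held them. Both strands were searched, the half-site is part of the full CRE, and a match describes letters and not a bound site. The G and C content of the 4 printed windows was 72.3% in Nr4a1, 81.7% in Nr4a2, 64.7% in Nr4a3 and 63.0% in Homer1, and that of the second Homer1 window 44.7%, against a median of 52.67% over all windows. Nr4a2 was the best counted of the 3 Nr4a genes and Nr4a3 the least, with 888 and 78 counts over the 18 libraries and 203 for Nr4a1.

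Depth ran from 9478891 counts on genes in replicate 2 of 8 HPI to 23082327 in replicate 2 of 3 HPI. For any reason, 25.24% to 33.19% of all counts were not assigned to a gene. The cultures carried the markers of sensory neurons, with a summed level of 7635 to 9612 CPM, counts scaled to the library's total on genes, over the 7 listed genes. The 6 markers of satellite glia and Schwann cells summed to 1.38 to 12.5 CPM, the 3 of myeloid cells to 3.13 to 6.83 CPM, the 3 of endothelial cells to 0.314 to 1.36 CPM and the 4 of fibroblasts to 0.996 to 9.83 CPM. Sox10, Cdh19, Gfap, Kcnj10, Ptprc, Cdh5, Cldn5 and Pdgfra were at 0 counts in at least 1 library each. In such bulk libraries, fewer cells of a type and less RNA per cell cannot be told apart.

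Of the 10 genes, 5 passed the filter for testing, which asked for over 1 CPM in at least 3 libraries: Egr1, Ier2, Nr4a2, Arc and Homer1. The other 5, Egr3, Egr4, Nr4a1, Nr4a3 and Npas4, reached at most 11, 7, 28, 9 and 13 counts in any library. Per kilobase of exon, Ier2 and Homer1 led the control cultures, with 2.91 ± 0.403 and 2.90 ± 0.441 RPKM, which is CPM per kilobase of exon (SD, n = 3). Nr4a2 followed with 0.647 ± 0.269 RPKM, Egr1 with 0.535 ± 0.0326 and Arc with 0.319 ± 0.0538. The 5 low genes stood below these, from 0.0608 ± 0.0533 RPKM for Nr4a1 to 0.0190 ± 0.0260 for Nr4a3, and their standard deviations were of the size of the means in all but Egr4, at 0.0496 ± 0.0175. The plot of RPKM by gene shows that the order at the top changed after injury, when Egr1 and Arc passed Nr4a2. Over its longest transcript in place of all its exons, Homer1 came to 6.08 RPKM.

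**Figure D1:**
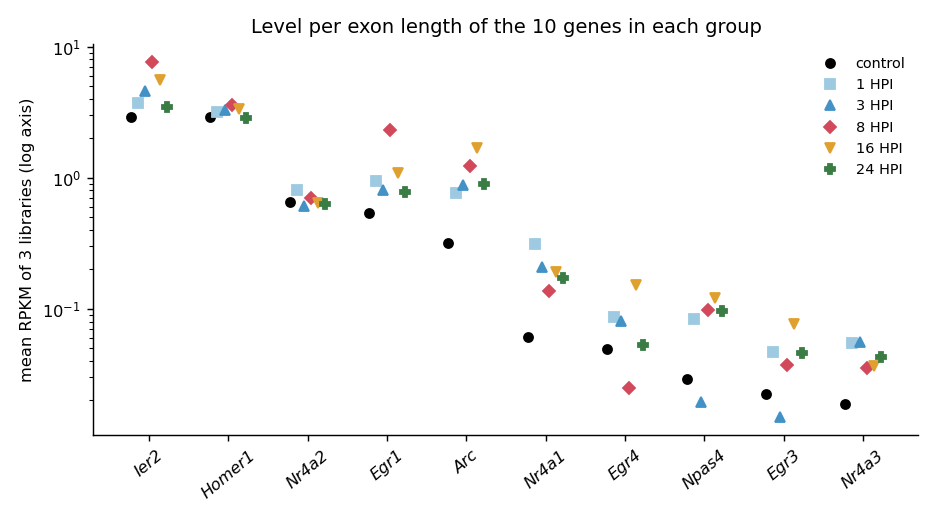
Mean RPKM of 3 libraries for each of the 10 genes (horizontal axis, in the order of their control level) on a log axis, with 1 symbol for each of the 6 groups. Control means run from 2.91 for Ier2 to 0.0190 for Nr4a3. Egr1 and Arc both lie above Nr4a2 at 3, 8, 16 and 24 HPI, and Egr1 alone of these does at 1 HPI.

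A gene was called when edgeR's quasi-likelihood test gave a p under 0.05 after Benjamini-Hochberg adjustment over 13771 genes, here the edgeR adjusted p, and the change was over 2-fold. Arc was called at all 5 time points, Egr1 at 8 and 16 HPI, and Ier2 at 8 HPI, all of them higher than control. At 1 HPI the called gene among the 5 tested was Arc, where 0.0290% of all tested genes were called higher, and at 3 HPI it was again Arc, against 0.0218% of all. At 8 HPI 3 of 5 were called, Egr1, Arc and Ier2, against 0.254% of all tested genes. At 16 HPI 2 of 5 were called, Egr1 and Arc, against 1.18%, and at 24 HPI 1 of 5, Arc, against 0.639%. By adjusted p alone, Homer1 joined at 8 HPI, 4 of 5 against 3.78% of all, and Ier2 at 16 HPI, 3 of 5 against 10.7%. The members had been taken with earlier results of these data known, so the counts describe these genes and are no test of the group.

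**Figure D2:**
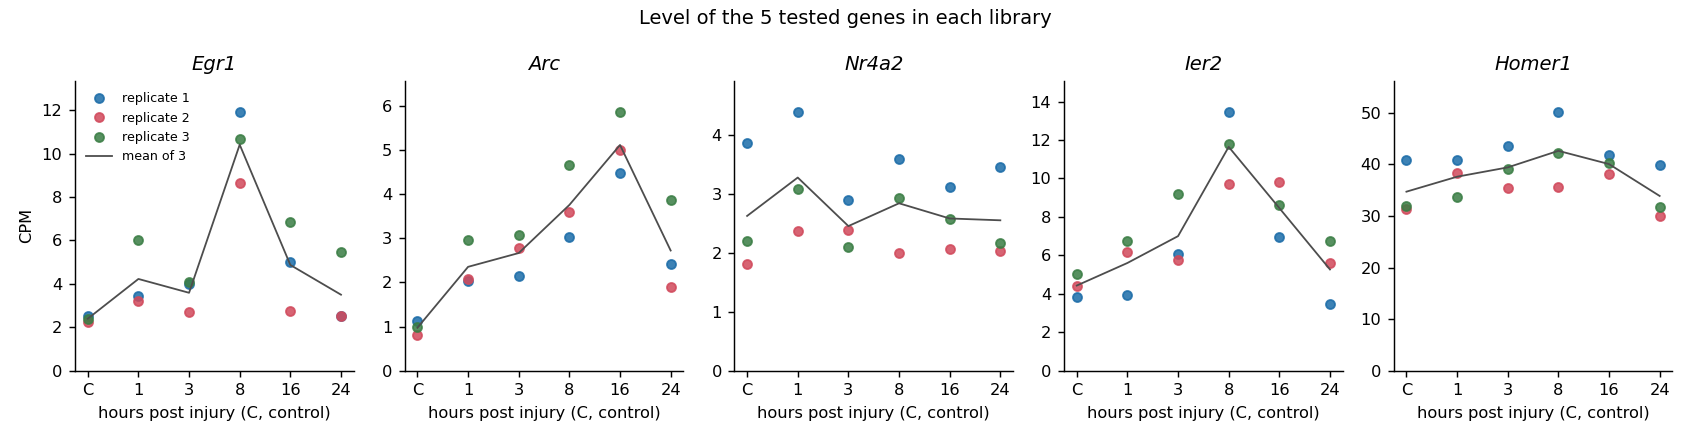
CPM of the 5 tested genes (vertical axes, each from 0) in each of the 18 libraries, with control (C) and hours post injury evenly spaced on the horizontal axis, points coloured by replicate number and a line through the mean of 3 libraries. Egr1 and Ier2 are highest at 8 HPI and Arc at 16 HPI, while Nr4a2 and Homer1 overlap with control at every time point.

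Egr1 (ENSMUSG00000038418.7; chromosome 18 of GRCm38 from 34859823 to 34864984, plus strand) encodes the founding zinc finger transcription factor of its family, a standard marker of neuronal activation and a target of SRF. Its counts in the control libraries were 52, 31 and 48, or 2.55, 2.25 and 2.40 CPM in replicates 1 to 3. At 1 HPI the libraries held 3.45, 3.20 and 6.04 CPM, and at 3 HPI 4.01, 2.69 and 4.08 CPM. All 6 of these early libraries lay above the 3 controls, by amounts that did not pass the adjusted test in the fit of all 18 libraries. At 8 HPI Egr1 reached 11.9, 8.65 and 10.7 CPM, from 209, 82 and 204 counts. The libraries of all other groups lay below these 3, the highest of them being replicate 3 of 16 HPI at 6.85 CPM. The 16 HPI libraries held 5.0, 2.77 and 6.85 CPM and those at 24 HPI 2.54, 2.52 and 5.46 CPM, so replicate 3 was the highest of both groups and the 24 HPI values overlapped with control.

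The rise of Egr1 against control was 0.81 ± 0.24 on the log2 scale at 1 HPI (SE, as for all log2 fold changes here; edgeR adjusted p = 0.154) and 0.60 ± 0.24 at 3 HPI (edgeR adjusted p = 0.259). In the fit of the 2 compared groups alone, the change at 1 HPI passed the adjusted test under 2-fold (0.80, edgeR adjusted p = 0.0239). At 8 HPI it was 2.14 ± 0.21, a 4.41-fold rise (edgeR adjusted p = 2.02e-06), and it stood between 1.91 and 2.25 in the 3 replicate numbers compared with their own control. This was the largest change of the gene and was called under all 15 alternative settings run for it. At 16 HPI the change was 1.00 ± 0.23 (edgeR adjusted p = 0.00333) and ranged from 0.21 to 1.44 over the replicate numbers. That value lay at the 2-fold limit, and the call was lost with DESeq2's size factors or its Wald test and without replicate 3 of control (0.79), replicate 1 of 16 HPI (0.93) or replicate 3 of 16 HPI (0.87). Without the replicate block it was 0.99, with an edgeR adjusted p = 0.122. At 24 HPI the change was 0.57 ± 0.24 and did not pass (edgeR adjusted p = 0.119), with all 3 replicate numbers higher than their control, by 0.03 to 1.19.

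Between consecutive time points, Egr1 did not differ between 1 and 3 HPI beyond its spread (-0.21 ± 0.21, edgeR adjusted p = 0.822). It then rose by 1.55 ± 0.19 from 3 to 8 HPI (edgeR adjusted p = 3.30e-05), the 1 called gene among the 5 where 0.174% of all were called higher. From 8 to 16 HPI it fell by 1.14 ± 0.19 on the log2 scale (edgeR adjusted p = 0.000332), again the 1 called among the 5, against 0.138% of all called lower. Without the replicate block these steps were 1.57 and -1.14 with edgeR adjusted p = 0.0643 and 0.0987, and the second was under 2-fold without replicate 1 of 8 HPI (-0.97) or replicate 2 of 16 HPI (-0.98). In the order of its levels, 8 HPI stood apart at the top and no other pair of neighbours, 16, 1, 3 and 24 HPI and control, differed by the test.

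Ier2 (ENSMUSG00000053560.4; chromosome 8 from 84661331 to 84662852, minus strand), a small intronless immediate early gene of a nuclear protein, followed the course of Egr1 with a smaller rise. Control libraries held 3.82, 4.43 and 5.05 CPM, from 78, 61 and 101 counts. At 1 HPI the values were 3.92, 6.16 and 6.74 CPM, at 3 HPI 6.05, 5.76 and 9.20 CPM, and at 8 HPI 13.5, 9.71 and 11.8 CPM. The 3 HPI libraries lay above control without overlap, and the 8 HPI libraries above both. At 16 HPI they held 6.95, 9.83 and 8.61 CPM, of which replicate 2 lay above the lowest 8 HPI library. At 24 HPI they held 3.46, 5.62 and 6.73 CPM and overlapped with control.

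The log2 fold change of Ier2 against control was 0.33 ± 0.21 at 1 HPI and 0.64 ± 0.20 at 3 HPI, neither of which passed (edgeR adjusted p = 0.533 and 0.141). It was 1.44 ± 0.19 at 8 HPI, a 2.71-fold rise called under all 15 alternatives (edgeR adjusted p = 5.84e-05). At 16 HPI Ier2 was still higher, by 0.91 ± 0.20 (edgeR adjusted p = 0.00180), under 2-fold except without replicate 3 of 16 HPI (1.05), and at 24 HPI the difference did not pass (0.25 ± 0.21, edgeR adjusted p = 0.463). The step from 3 to 8 HPI was 0.80 ± 0.17 (edgeR adjusted p = 0.0127), and with Egr1 made 2 of 5 against 1.74% of all genes higher by adjusted p. From 8 to 16 HPI Ier2 fell by 0.53 ± 0.17 on the log2 scale (edgeR adjusted p = 0.0445), 2 of 5 with Egr1 against 7.88% of all lower, and from 16 to 24 HPI it fell by 0.67 ± 0.19 (edgeR adjusted p = 0.0263). These 3 steps depended on single libraries. The first lost its significance without replicate 1 or 2 of 3 HPI (edgeR adjusted p = 0.0696 and 0.0863) or replicate 1 of 8 HPI (0.190), the second without replicate 1 of 8 HPI (0.417) or replicate 1 or 3 of 16 HPI (0.105 and 0.221), and the last without replicate 1 or 2 of 16 HPI (0.0791 and 0.142) or replicate 1 of 24 HPI (0.131). Without the replicate block their edgeR adjusted p = 0.360, 0.340 and 0.252. The step from 8 to 16 HPI also lost its significance with upper-quartile scaling. Over the longer span from 8 to 24 HPI, Egr1 fell by 1.57 ± 0.19 and Ier2 by 1.19 ± 0.18 on the log2 scale (edgeR adjusted p = 1.00e-05 and 0.000144), 2 of 5 called lower against 0.341% of all.

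The 3 Nr4a genes encode orphan nuclear receptors that bind DNA without a known natural ligand and are induced by calcium and cyclic AMP in neurons. Nr4a2 (ENSMUSG00000026826.13; chromosome 2 from 57106830 to 57124003, minus strand), also known as Nurr1, was the one tested. Its CPM values were 3.87, 1.82 and 2.20 in control, 4.39, 2.36 and 3.08 at 1 HPI and 2.89, 2.38 and 2.09 at 3 HPI. They were 3.59, 2.00 and 2.93 at 8 HPI, 3.12, 2.06 and 2.58 at 16 HPI and 3.46, 2.03 and 2.16 at 24 HPI. Every group overlapped with control, and replicate 1 held the highest value of all 6 groups. The log2 fold change was 0.30 ± 0.16 at 1 HPI, where all 3 replicate numbers were higher than their control, and lay between -0.09 and 0.14 at the later times (edgeR adjusted p from 0.457 to 0.926 over the 5 comparisons). With a standard error of 0.16 to 0.17, a change of the size of Arc's was not seen, and the test does not show that the level stayed the same.

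Nr4a1 (ENSMUSG00000023034.6; chromosome 15 from 101254269 to 101274795, plus strand), also known as Nur77, had counts too low for the filter and was the one low gene called with a looser one. Control libraries held 0, 4 and 7 counts. At 1 HPI there were 12, 17 and 28 counts and at 3 HPI 12, 18 and 14, all above the highest control. The 8 HPI libraries held 6, 5 and 11 counts, those at 16 HPI 14, 8 and 11, and those at 24 HPI 9, 10 and 17. In CPM, Nr4a1 was higher than the control of the same replicate number in 3 of 3 at each of the 5 time points. Pooled over 3 libraries and scaled to depth, 57 counts at 1 HPI against 11 in control gave a ratio of 5.09 (95% exact interval 2.64 to 10.8), and the ratio was 3.60 (1.83 to 7.73) at 3 HPI, 2.36 (1.10 to 5.39) at 8 HPI, 3.22 (1.59 to 7.07) at 16 HPI and 2.96 (1.48 to 6.46) at 24 HPI. These intervals cover counting error only and not the spread between libraries.

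With a filter of at least 10 counts over all libraries, 23606 genes were tested and Nr4a1 was among them. It was called at 1 HPI (2.36 ± 0.48, edgeR adjusted p = 0.0222), where 0.0212% of those genes were called higher, and at 16 HPI (1.70 ± 0.53, edgeR adjusted p = 0.0309), where 1.00% were. At 3, 8 and 24 HPI the changes were 1.87, 1.20 and 1.56 and missed the threshold (edgeR adjusted p = 0.104, 0.313 and 0.0647). The call at 1 HPI was lost without any 1 of the control libraries (edgeR adjusted p = 0.0968, 0.0749 and 0.0554 without replicates 1, 2 and 3) and without replicate 2 or 3 of 1 HPI (0.103 and 0.124). The call at 16 HPI was lost without replicate 1 of control (0.179) or replicate 1 of 16 HPI (0.243). The log2 fold change stayed between 1.82 and 2.85 at 1 HPI and between 1.16 and 2.19 at 16 HPI in these fits.

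Nr4a3 (ENSMUSG00000028341.9; chromosome 4 from 48045153 to 48086447, plus strand) was at 0, 4 and 1 counts in control, 4, 8 and 6 at 1 HPI and 9, 3 and 7 at 3 HPI. The later groups held 2 to 6 counts per library, and 7 of the 18 libraries were at or under the floor of 3 counts. Its pooled ratio to control was 3.54 (95% exact interval 1.27 to 12.2) at 1 HPI and 3.42 (1.24 to 11.7) at 3 HPI, from 5 control counts, and the intervals of the later times reached below 1. None of its 5 comparisons passed with the filter of 10 counts (edgeR adjusted p from 0.331 to 0.570, unadjusted p under 0.05 at 1 and 3 HPI).

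**Figure D3:**
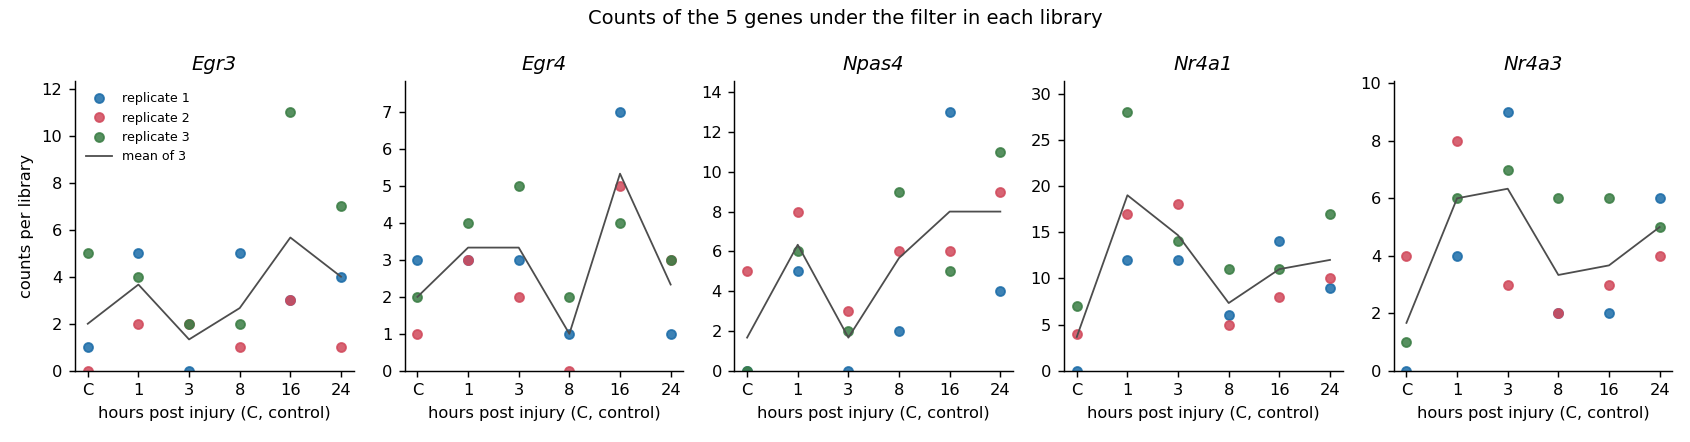
Counts of the 5 genes under the filter (vertical axes, each from 0) in each library, with control (C) and hours post injury on the horizontal axis, points coloured by replicate number and a line through the mean of 3 libraries. Nr4a1 lies at 12 to 28 counts at 1 HPI against 0 to 7 in control, and the other genes stay at 13 counts or fewer throughout.

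Npas4 (ENSMUSG00000045903.8; chromosome 19 from 4984355 to 4990316, minus strand), a transcription factor of neurons that responds to calcium entry more selectively than the other genes, was scarce in all groups. Its counts were 0, 5 and 0 in control, 5, 8 and 6 at 1 HPI and 0, 3 and 2 at 3 HPI. They were 2, 6 and 9 at 8 HPI, 13, 6 and 5 at 16 HPI and 4, 9 and 11 at 24 HPI. In CPM, 1 HPI and control overlapped, with 0.261 in the lowest 1 HPI library and 0.363 in the highest control library. Pooled ratios to control, from 5 control counts all in replicate 2, were 3.73 (95% exact interval 1.35 to 12.8) at 1 HPI, 0.900 (0.207 to 3.91) at 3 HPI, 4.01 (1.42 to 13.9) at 8 HPI, 5.16 (1.93 to 17.3) at 16 HPI and 4.35 (1.63 to 14.6) at 24 HPI. With the filter of 10 counts none passed, although the unadjusted p was under 0.05 at 1, 8, 16 and 24 HPI, and the nearest was 16 HPI (2.27 ± 0.78, edgeR adjusted p = 0.0547).

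Egr3 and Egr4, relatives of Egr1 that are induced by the same signals in many neurons, were close to the floor. Egr3 (ENSMUSG00000033730.3; chromosome 14 from 70077203 to 70082614, plus strand) held 1, 0 and 5 counts in control and 3, 3 and 11 at 16 HPI, its highest group, and 11 of 18 libraries had 3 counts or fewer. Egr4 (ENSMUSG00000071341.4; chromosome 6 from 85511121 to 85513589, minus strand) held 3, 1 and 2 counts in control and 7, 5 and 4 at 16 HPI, and 13 of 18 libraries had 3 counts or fewer. At 16 HPI the pooled ratio to control was 3.04 (95% exact interval 1.15 to 9.43) for Egr3 and 2.87 (1.06 to 8.94) for Egr4, each from 6 control counts. At 8 HPI, where Egr1 peaked, the ratios were 1.57 (0.479 to 5.50) for Egr3 and 0.590 (0.0954 to 2.76) for Egr4. No comparison of either gene with control passed with the filter of 10 counts. At 16 HPI, where both had an unadjusted p under 0.05, the changes were 1.65 ± 0.70 for Egr3 and 1.53 ± 0.65 for Egr4 (edgeR adjusted p = 0.145 and 0.139).

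Arc (ENSMUSG00000022602.14; chromosome 15 from 74669083 to 74672570, minus strand) encodes a protein of the postsynaptic cytoskeleton that controls the removal of AMPA receptors, and its mRNA is carried into dendrites. It was the one gene of the 10 called at every time point. Control libraries held 23, 11 and 20 counts, or 1.13, 0.800 and 1.00 CPM. The values were 2.04, 2.07 and 2.95 CPM at 1 HPI, 2.14, 2.77 and 3.08 CPM at 3 HPI and 3.02, 3.59 and 4.66 CPM at 8 HPI. They reached 4.48, 5.0 and 5.86 CPM at 16 HPI, from 69, 85 and 100 counts, and then dropped to 2.42, 1.89 and 3.86 CPM at 24 HPI. All 15 injured libraries lay above the 3 controls, and within each replicate number control was the lowest and 16 HPI the highest of the 6 groups.

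Against control, Arc rose by 1.24 ± 0.23 at 1 HPI (edgeR adjusted p = 0.0260), 1.43 ± 0.22 at 3 HPI (edgeR adjusted p = 0.0111) and 1.91 ± 0.22 at 8 HPI (edgeR adjusted p = 1.10e-05). At 16 HPI the rise was 2.34 ± 0.21, or 5.07-fold (edgeR adjusted p = 1.31e-07), and at 24 HPI 1.44 ± 0.22 (edgeR adjusted p = 0.000182). The calls at 8, 16 and 24 HPI held under all 14 alternatives in which Arc was tested. The 2 early calls did not: without the replicate block their edgeR adjusted p = 1.000 at 1 HPI and 0.472 at 3 HPI, for changes of 1.23 and 1.42. The call at 1 HPI was also lost without replicate 2 or 3 of control (edgeR adjusted p = 0.170 and 0.142) or replicate 1 or 2 of 1 HPI (0.118 and 0.154), and that at 3 HPI without replicate 2 or 3 of control (0.101 and 0.193) or replicate 2 of 3 HPI (0.149).

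**Figure D4:**
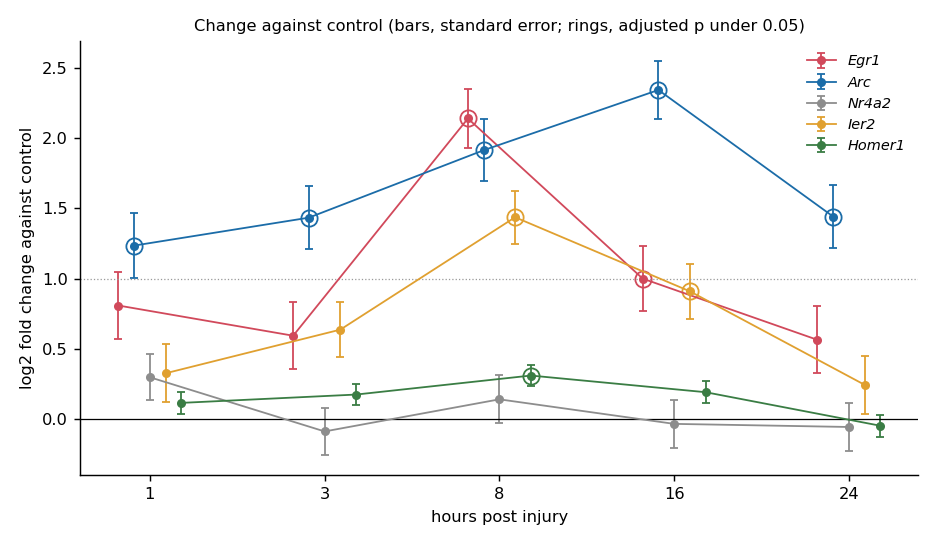
Log2 fold change against control (vertical axis) of the 5 tested genes at 1, 3, 8, 16 and 24 HPI, evenly spaced on the horizontal axis, with standard errors as bars, rings where the adjusted p was under 0.05 and a dotted line at 2-fold. Arc is ringed at every time point with its highest value of 2.34 at 16 HPI, and Egr1 has its highest value of 2.14 at 8 HPI.

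Arc did not differ from one time point to the next by the test between 1 and 3 HPI (0.20 ± 0.19), 3 and 8 HPI (0.48 ± 0.18) or 8 and 16 HPI (0.43 ± 0.17; edgeR adjusted p = 0.807, 0.213 and 0.0852), whereas 16 HPI was higher than 1 HPI by 1.11 ± 0.17 (edgeR adjusted p = 0.000129). From 16 to 24 HPI Arc fell by 0.90 ± 0.17 on the log2 scale (edgeR adjusted p = 0.00136), which with Ier2 made 2 of 5 lower by adjusted p against 6.22% of all genes. Without the replicate block this step was -0.89 with an edgeR adjusted p = 0.105, and it passed 2-fold without replicate 3 of 16 HPI (-1.01) or replicate 3 of 24 HPI (-1.12). Since Egr1 was highest at 8 HPI and Arc at 16 HPI in 3 of 3 replicate numbers, the 2 genes differed in the order of their groups, a difference that was not tested. The level at 24 HPI lay beside that at 3 HPI, with a difference of 0.01 ± 0.18 (edgeR adjusted p = 0.989).

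Some markers of the cell types listed also differed from control in the late groups, and others did not. No gene passed at 16 or 24 HPI among the 3 tested of satellite glia and Schwann cells. No endothelial gene was tested. The fibroblast gene Dcn was called higher at 16 HPI (2.07 ± 0.28, edgeR adjusted p = 1.77e-05) and 24 HPI (2.22 ± 0.27, edgeR adjusted p = 1.59e-05). That was 1 of 3 tested among the 4 listed, against 1.18% and 0.639% of all tested genes called higher. Dcn was a low gene, with 3 to 71 counts per library. Col1a1 and Col1a2 passed at neither time (edgeR adjusted p from 0.342 to 0.945). The sum of the 4 fibroblast genes was 1.67 to 5.44 CPM in control, 3.47 to 7.40 at 16 HPI and 3.20 to 9.83 at 24 HPI, with overlap. The macrophage gene Cd68 was higher by 0.97 ± 0.25 at 16 HPI and 0.93 ± 0.24 at 24 HPI (edgeR adjusted p = 0.00698 and 0.0125), under 2-fold. That was 1 of 2 tested among the 3 myeloid genes, against 10.7% and 5.99% of all tested genes higher by adjusted p. Aif1 passed at neither time (0.25 ± 0.21 and 0.46 ± 0.20, edgeR adjusted p = 0.430 and 0.120). The 3 myeloid genes summed to 3.13 to 4.55 CPM in control, 4.55 to 5.77 at 16 HPI and 4.66 to 6.83 at 24 HPI. Of the 7 sensory neuron genes, 0 were higher and 1 lower by adjusted p at 16 HPI, against 10.7% and 11.5% of all tested genes. That count is near the background, and nothing is read from it. At 24 HPI 2 were higher and 2 lower, against 5.99% and 9.03% of all. Lower at both times was Tubb3, a neuronal tubulin, with changes of -0.40 ± 0.05 and -0.37 ± 0.05 (edgeR adjusted p = 1.09e-05 and 6.79e-05). The 7 summed to 8804 to 9176 CPM in control, 7635 to 8802 at 16 HPI and 7929 to 8423 at 24 HPI. A list of entries for residual rRNA, which also holds Lars2 and Rn7sk, genes other than rRNA, took 0.971% to 1.38% of counts in control. At 16 HPI the list took 1.45% to 4.92%, and 4 of 6 tested were called higher, against 1.18% of all tested genes. With that list and mitochondrial genes left out, the changes at 16 HPI were 2.34 for Arc and 1.00 for Egr1. The part of these cell types in the late values of Arc and Egr1 was not tested.

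Homer1 (ENSMUSG00000007617.17; chromosome 13 from 93299635 to 93405129, plus strand) encodes a scaffold that ties metabotropic glutamate receptors to inositol trisphosphate receptors and Shank proteins. Its short form, induced by activity, breaks this scaffold, but the table counts the gene as a whole over 12 annotated transcripts, so short and long forms cannot be told apart, and Gm47075 and Gm47088 overlap it on the same strand. With 337 to 880 counts per library it was the best counted of the 10. Control libraries held 40.8, 31.4 and 32.0 CPM, and those at 8 HPI, the highest group, 50.2, 35.6 and 42.2 CPM. Replicate 1 was the highest in both groups and the groups overlapped, as did all others with control. The difference at 8 HPI was 0.31 ± 0.08, a 1.24-fold rise present in 3 of 3 replicate numbers (edgeR adjusted p = 0.0166). It lost significance without the replicate block (edgeR adjusted p = 0.703) and without replicate 2 or 3 of control (0.0521 and 0.0991) or replicate 1 or 3 of 8 HPI (0.112 and 0.0928).

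At the other times Homer1 held 40.9, 38.3 and 33.7 CPM at 1 HPI, 43.7, 35.5 and 39.2 at 3 HPI, 41.8, 38.2 and 40.2 at 16 HPI and 39.9, 29.97 and 31.8 at 24 HPI. These changes against control ran from -0.05 ± 0.08 at 24 HPI to 0.19 ± 0.08 at 16 HPI (edgeR adjusted p from 0.0795 to 0.742). No neighbours in the order of its levels differed by the test, but 24 HPI was lower than 8 HPI by 0.36 ± 0.08 on the log2 scale (edgeR adjusted p = 0.00347), 3 of 5 with Egr1 and Ier2 against 7.34% of all genes lower by adjusted p.

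Between 1 and 3 HPI none of the 5 tested genes was called by edgeR or DESeq2, and none of all 13771, of which 1035 had an unadjusted p under 0.05. Nr4a2 was the one of the 5 with an unadjusted p under 0.05 there, at -0.39 ± 0.16 (edgeR adjusted p = 0.611).

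Other genes of the rapid response, in a list of 30 of which 29 were in the table and 24 were tested, were counted likewise. Called higher were 2, 2, 10, 9 and 5 of them at 1, 3, 8, 16 and 24 HPI, against 0.0290%, 0.0218%, 0.254%, 1.18% and 0.639% of all tested genes, and none was called lower. Their median log2 fold changes were 0.28, 0.27, 0.90, 0.76 and 0.27, against medians between -0.0022 and 0.0021 over all tested genes. The 2 early calls were Fosb and Fos, partners of Jun in the AP-1 factor, at 2.83 ± 0.41 and 2.52 ± 0.31 at 1 HPI and at 2.75 ± 0.41 and 2.75 ± 0.30 at 3 HPI. Without the replicate block, 0 of all tested genes were called at 1 HPI and 1 at 3 HPI. Both calls at 1 HPI were thus lost, and at most 1 of those at 3 HPI held. The largest at 8 HPI were Fos (2.79 ± 0.30) and Atf3 (2.29 ± 0.22), an injury-induced factor of sensory neurons, at 16 HPI Atf3 (3.16 ± 0.21) and Fosb (2.60 ± 0.43), and at 24 HPI Fosb (2.46 ± 0.43) and Fos (1.39 ± 0.35). In the plot of all listed genes, the calls of Egr1 and Ier2 at 8 HPI fall in the column with the most calls.

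**Figure D5:**
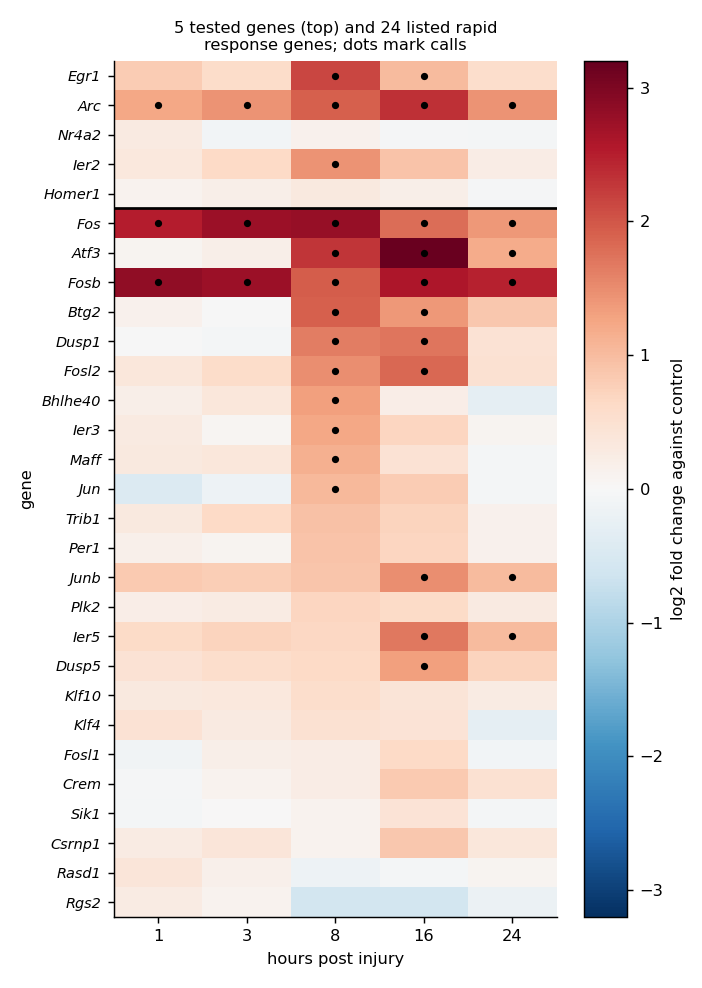
Log2 fold change against control, by colour, of the 5 tested genes (above the line) and the 24 tested genes of the rapid response list (below it, sorted by their value at 8 HPI) at 1, 3, 8, 16 and 24 HPI, with dots where a gene was called. The list has 2, 2, 10, 9 and 5 dots from left to right.

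Genes that act before, beside or after the members in the pathway were counted in 3 more lists. Of 12 secreted and effector genes of active neurons, such as Bdnf and Vgf, 10 were tested, and of 14 partners of the member proteins, such as the Egr corepressors Nab1 and Nab2 and the retinoid X receptors, 13 were. Of 17 upstream factors, SRF, MEF2 and CREB with their coactivators, 15 were tested. In each of these 3 lists 0 genes were called at any of the 5 time points by edgeR or by DESeq2 without independent filtering. With 0.0218% to 1.18% of all tested genes called higher, a count of 0 in lists of this size is near the background, and nothing is read from it. At an unadjusted p under 0.05 there were between 1 and 7 of the effector genes, between 0 and 6 of the partners and between 3 and 9 of the upstream factors, where 12.8% to 33.6% of all tested genes were. The most by adjusted p were the upstream factors at 16 HPI, with 5 of 15 higher and 1 lower, against 10.7% higher and 11.5% lower of all, and the median changes of the 3 lists lay between -0.12 and 0.08.

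Across the 18 libraries, with the replicate number removed from log2 CPM, the tested genes were compared with each other and with all other tested genes by Pearson's r. The libraries share depth and time point, so these values describe likeness and were not tested. Ier2 and Egr1 were the most alike pair of the 5, with r = 0.84, followed by Homer1 and Ier2 at 0.78 and Ier2 and Arc at 0.68. Arc and Egr1 had r = 0.62, and Nr4a2 stood apart from the other 4, with r between -0.03 and 0.23. The gene most like Egr1 among all others was Mtf1 (r = 0.90), followed by Calcrl (0.89), and the genes most like Ier2 were Tra2a (0.89) and Klf9 (0.89). For Arc they were Gabarapl1 (0.88) and Wdr43 (0.88), for Homer1 Socs4 (0.91) and Hinfp (0.85), and for Nr4a2 Auh (0.84) and Igsf21 (0.83).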

How the data were processed

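RNA of 18 libraries was prepared, per the labels, with Ribo-Zero Gold depletion and SMARTer cDNA synthesis. The authors deposited raw read counts per gene, without normalization or batch correction. The submitters' processing notes name FastQC, STAR, HTSeq, DESeq2 and mm10, whereas the study's methods name featureCounts, and the strand setting of the counting is not given in the sources used here. Of the 47643 identifiers, 47224 matched GENCODE vM21 on GRCm38, which gave positions and exon lengths. No pair of libraries held identical counts.

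The software was R 4.3.3 (edgeR 4.0.16, DESeq2 1.42.0) and Python 3.11.15. The genes tested were those over 1 CPM in at least 3 libraries, 13771 in all. Libraries were scaled by TMM, and 1 quasi-likelihood model with time point and replicate number, taken as the batch, was fitted to all 18 libraries. Taking the replicate number as the batch was a choice made here, and the study's batch correction with other tools was not repeated. Same-numbered libraries deviated from their group means together (mean r = 0.619 over 45 pairs, lowest 0.484). Different numbers had a mean r of -0.308 over 90 pairs. This negative value follows from centring each group of 3 on its mean and adds no separate evidence. Tests were two-sided, over all 15 pairs of groups, with Benjamini-Hochberg adjustment over all tested genes. CPM and RPKM used counts on genes, log2 CPM a prior count of 2, and the floor was 3 counts. The procedure was tested on simulated data with the same spread for every gene, which does not show how it performs on genes with few counts or a wide spread. The members, lists and tests were chosen with earlier results of these data known. All 10 members are named, with, from each list, at most the 2 called genes of largest change at each time point, and the 2 genes most like each tested member. One listed glial marker is not reported here. Marker genes at 0 counts, Cd68, Tubb3, Bdnf, Vgf, Nab1 and Nab2 were named outside this rule.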

Additional observations from a re-analysis of the deposited data

Results flagged for a closer look

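Egr1 was singled out because its change against control differed between consecutive time points by a test of the difference itself and by over 2-fold. Steps of Ier2 and Arc that passed by adjusted p alone were under 2-fold. Without the replicate block neither step of Egr1 passed (edgeR adjusted p = 0.0643 and 0.0987). The change at 8 HPI was larger than that at 3 HPI by 1.55 ± 0.19 on the log2 scale (edgeR adjusted p = 3.30e-05), from 3.59 to 10.4 CPM on average, and the 3 libraries of the 2 groups did not overlap. The change at 16 HPI was smaller than that at 8 HPI, with a difference of -1.14 ± 0.19 (edgeR adjusted p = 0.000332), from 10.4 to 4.87 CPM on average, again without overlap.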

How the results depend on the processing

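Other scalings (DESeq2's or upper-quartile), DESeq2's Wald test, 2 other filters, a fit with no replicate block, one without the residual rRNA list and mitochondrial genes, fits of only the compared groups and fits lacking 1 library were tried, and no called fold change reversed under any of them. The numbers of genes called among the members were 1, 1, 3, 2 and 1 at 1, 3, 8, 16 and 24 HPI against control. With at least 10 counts over all libraries, or without the residual rRNA list and mitochondrial genes, 2 were called at 1 HPI, Arc and Nr4a1, and 3 at 16 HPI, Arc, Egr1 and Nr4a1. With over 1 CPM in all 18 libraries Arc was not tested, and the numbers were 0, 0, 2, 1 and 0 at the 5 times. Without the replicate block they were 0 at 1 HPI, 0 at 3 HPI and 1 at 16 HPI, and 0 in place of 1 both for 8 against 3 HPI and for 16 against 8 HPI, and the block changed no other number of called genes. At 16 HPI 1 was called with DESeq2's size factors and with its Wald test, with or without independent filtering, the last of which was added after seeing the data. Leaving out 1 library gave 0 to 1 at 1 HPI, 0 to 1 at 3 HPI, 1 to 2 at 16 HPI, 0 to 1 for 16 against 8 HPI, and 0 to 1 for 24 against 16 HPI in place of 0. Causes were not tested, except that Arc at 0.800 CPM could not enter the stricter filter. DESeq2's independent filtering gave Arc, Egr1, Ier2 and Nr4a2 no adjusted p at 1 and 3 HPI. Over all genes, 4, 4, 74, 205 and 113 were called against control, and 0, 1, 16, 108 and 23 without the block. Counts of 0 to 13 limit Egr3, Egr4, Npas4 and Nr4a3.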

Other observations

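The counting error of the 5 tested genes differed with their counts, whereas their observed spread did not follow the counts. That spread includes differences between replicate numbers, for which the model has a term. With a mean of 18 counts in control, counting alone gives Arc a relative error of 23.6%, and its CPM values there varied by 16.9% (SD over mean, n = 3). Egr1 varied by 6.09% in control, under the 15.1% that counting alone gives, but by 42.0% at 16 HPI and 48.2% at 24 HPI, against 11.2% and 11.9% from counting. Nr4a2, with a mean of 49.3 counts in control, varied by 41.5% against 14.2% from counting. Homer1, with a mean of 635 counts in control, varied by 15.2% against a counting error of 3.97%.

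The members also differed in size. Ier2 spans 1522 bases and is longer than 1.22% of the 12398 tested protein-coding genes, Egr4 spans 2469, Arc 3488, Egr1 5162, Egr3 5412 and Npas4 5962, all under the median span of 26236 bases. Homer1, at 105495 bases, is longer than 85.03% of those genes, and Nr4a3, at 41295, than 63.8%.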
